A study of Mus musculus with 10 samples.

Results

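The 36 genes described here are sensors, transcription factors and effectors that type I interferon induces. They were taken by gene symbol from the 35275 genes of the deposited table, and all 36 were found there. The guanylate-binding proteins, which interferon also induces, were left out of the list. The mice were of the C57BL/6 strain, were 22 days old, and gave RNA of the motor cortex for sequencing. The WT group held 5 biological repeats of wild-type mice, and the KO group held 5 of mice with a conditional knockout of membralin (gene Tmem259) in astrocytes (Astro-mem KO). Membralin is a protein of the endoplasmic reticulum membrane. The sources used here do not give the promoter that drove recombination, the alleles of the WT mice or the number of mice in each repeat. Levels are in FPKM, fragments scaled by gene length and by library depth, and each is a level of the whole tissue.

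Type I interferons are secreted alarm signals. They bind a receptor present on most cells, which activates the kinases Jak1 and Tyk2 and leads to the assembly of ISGF3, a complex of transcription factors that includes Stat2 and Irf9. ISGF3 binds a DNA element called the interferon-stimulated response element (ISRE) near the start of its target genes. In brain, microglia, astrocytes, endothelium and neurons can all respond. Several of the targets are also induced by interferon gamma, through an element called GAS.

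The libraries held between 22793058 and 28827871 fragments. Tmem259 (chromosome 10, 79974948 to 79984330, mm10) had levels of 25.5, 23.8, 25.0, 32.4 and 30.4 FPKM in the WT libraries, numbered 1 to 5. The KO libraries had 20.1, 18.5, 34.4, 16.9 and 26.2 FPKM, so the library labelled KO3 was the highest of the 10 and goes against its label. KO5 lay inside the WT range as well, and Tmem259 was not called (log2 fold change -0.27, SE 0.16, limma adjusted p = 0.275). Fitted without the library labelled KO3, Tmem259 was called lower (log2 fold change -0.42, SE 0.12, limma adjusted p = 0.0278). Since that library was the highest of the 10, leaving it out lowers the KO mean by construction. Gfap, the intermediate filament of astrocytes, was 106 FPKM in the library labelled KO3, inside the WT range of 79.4 to 114 FPKM, whereas the remaining KO libraries ran from 426 to 673 FPKM. For that reason each direction given for KO includes that library, and the main counts are also given without it. Markers of the labelled tissue were present in all libraries: the summed level of 8 markers of cortical excitatory neurons was 1580 to 1890 FPKM in WT and 1430 to 1560 FPKM in KO, and that of 8 astrocyte markers 700 to 811 and 672 to 807 FPKM.

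Interferon-stimulated genes were higher in KO cortex. KO was compared with WT in limma on log2(FPKM + 1) over the 14497 genes that averaged 0.5 FPKM or more, and a gene was called at an adjusted p under 0.05. Of the 36 members 33 passed that filter, 21 of the 33 rose and none fell, where 9.77% of all tested genes were called higher and 3.51% lower. The 12 members that were not called had log2 fold changes above 0 as well, and 29 of the 33 had an unadjusted p under 0.05. Over all 14497 tested genes 69.5% had a log2 fold change above 0, and 4758 had an unadjusted p under 0.05. The median log2 fold change of the 33 was 0.61, against 0.0779 for all tested genes. Bst2 had the largest, 1.52, and Herc6 the smallest, 0.11. On the scale of mean FPKM, the KO to WT ratio of the 36 members ran from 1.12 for Cmpk2 to 6.08 for Mx1. In whole tissue, a difference in the number of cells of a type cannot be told apart from a difference in RNA per cell.

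The adjusted p of the called members lay between 0.0180 and 0.0379, close below the threshold. Without WT1, without KO2 or without KO4 limma called none of the 33, and 2 of all tested genes were called in each of these fits. In them 28, 29 and 28 of the members had an unadjusted p below 0.05, as had 3934, 4114 and 3742 of all genes, the lowest adjusted p of a member was 0.0514, 0.0517 and 0.0555, and the median log2 fold change of the members was 0.60, 0.59 and 0.59. With the median-of-ratios scaling, 20 of the 33 were called higher and none lower, while the calls over all genes went from 1417 higher and 509 lower to 608 higher and 945 lower.

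**Figure D1:**
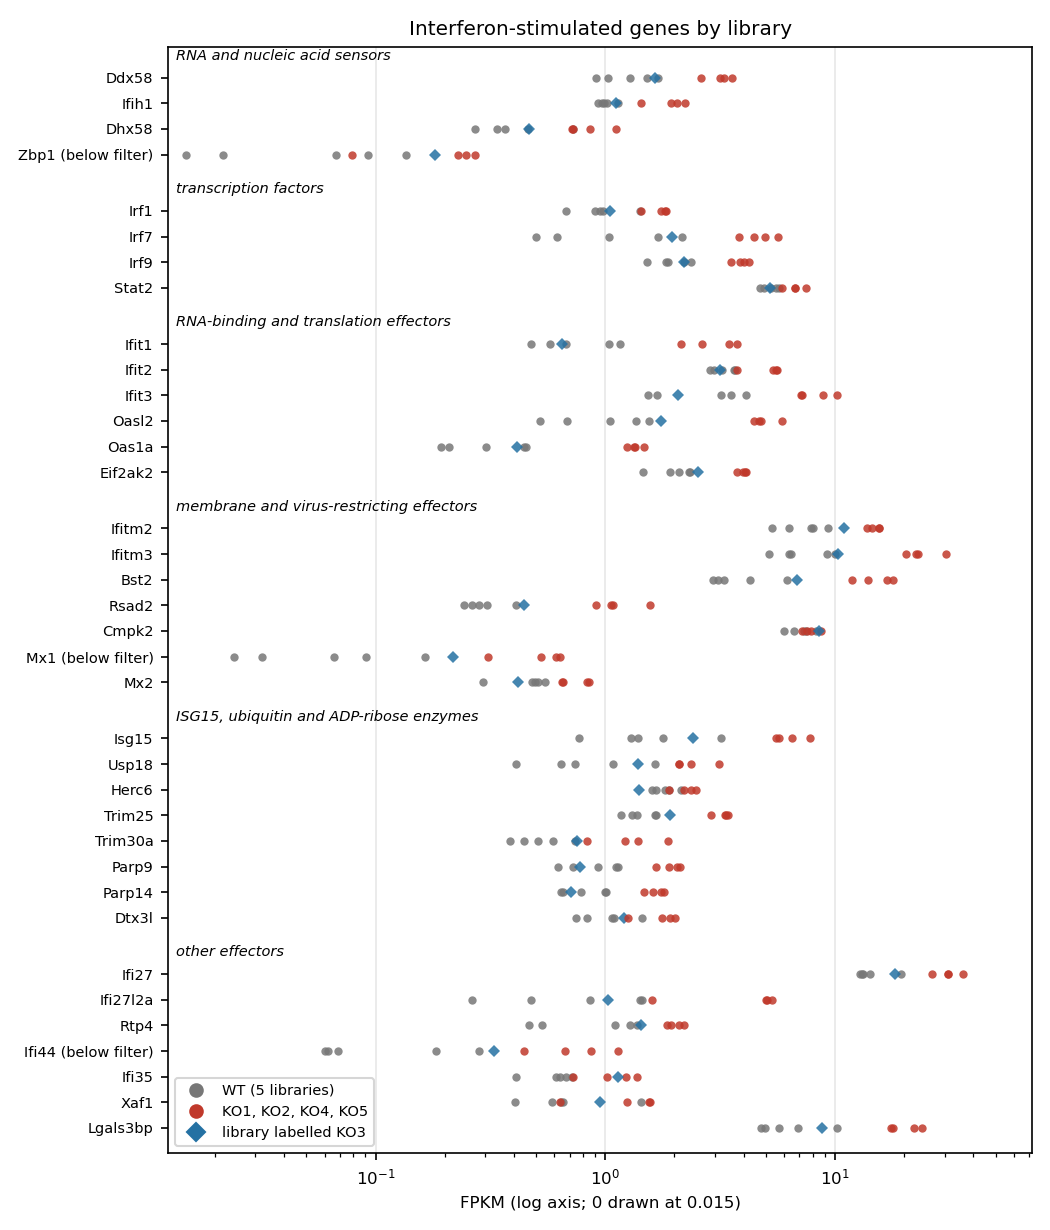
Level of each member in each of the 10 libraries (horizontal log axis, FPKM), 1 point per library, grouped by role. KO1, KO2, KO4 and KO5 (red) lie to the right of every WT library (grey) for 30 of the 36 members, and the library labelled KO3 (blue diamonds) lies inside the WT range for 21. Over all tested genes the red libraries lie above every WT library for 17.8%. The share with the library labelled KO3 inside the WT range was not counted.

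The groups were fully apart, with KO higher, for 10 of the 33 members, where 5.70% of all tested genes did so. With the library labelled KO3 set aside, the other KO libraries lay above every WT library for 28 of the 33, against 17.8% of all tested genes. The library labelled KO3 was the lowest KO library for 32 of the 36 members. The exceptions were Zbp1, Cmpk2 and Xaf1, which were lowest in KO5, and Ifi35, which was lowest in KO4. How often the library labelled KO3 was the lowest over all tested genes was not counted. Summed over the 36 members, the level was 66.7 to 105.1 FPKM in WT, 104.5 FPKM in the library labelled KO3 and 172.2 to 222.3 FPKM among the remaining KO libraries. Fitted without that library, 29 of the 33 members were called higher, against 19.6% of all tested genes, and the median log2 fold change of the 33 was 0.72. Dhx58, Irf1, Stat2, Ifit2, Ifit3, Parp9, Parp14 and Dtx3l were called in that fit but not in the fit of all libraries. Cmpk2, Mx2, Herc6 and Xaf1 were called in neither. Since that library is the lowest one for most members, leaving it out raises the KO mean by construction.

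**Figure D2:**
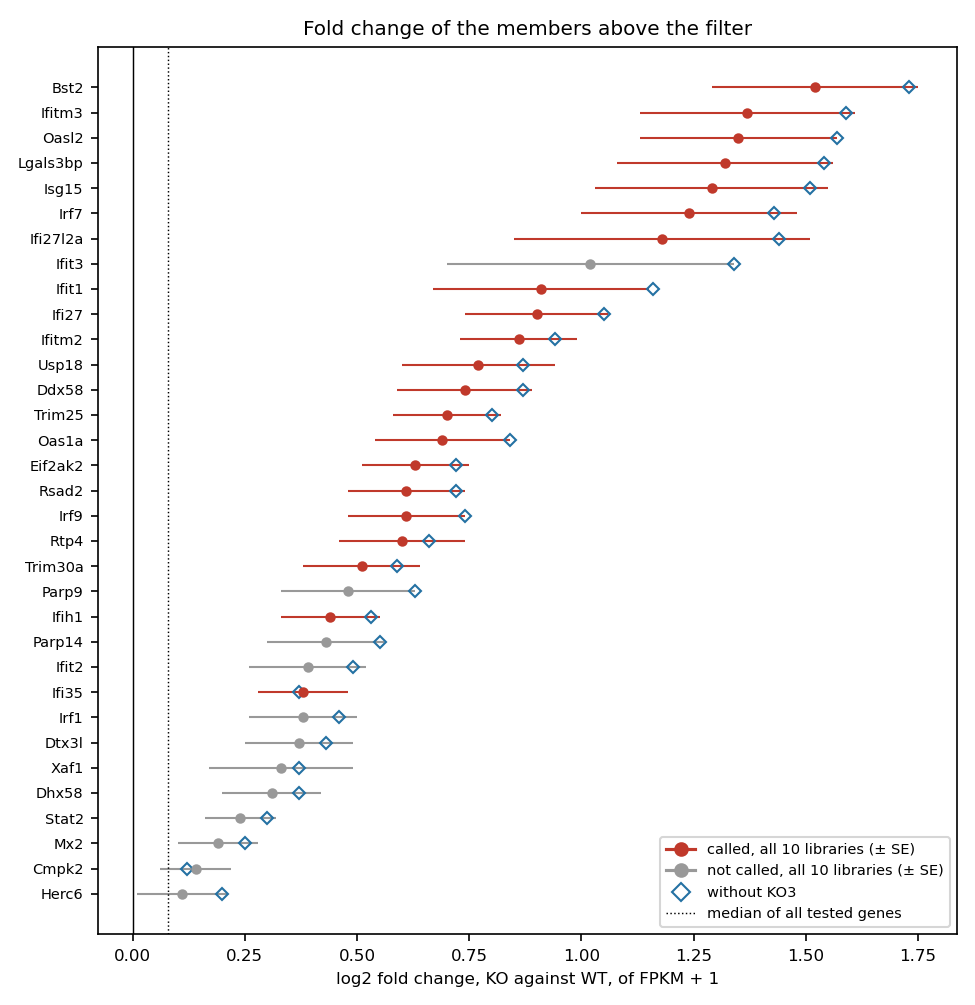
Log2 fold change of KO against WT on FPKM + 1 for the 33 members above the filter (points, with the standard error as bars; red where called) and the same without the library labelled KO3 (open diamonds). All 33 points lie to the right of 0, from 0.11 for Herc6 to 1.52 for Bst2, and the dotted line marks the median of all tested genes at 0.0779.

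Promoter sequences of the members were also looked at. The members were listed as interferon targets, so a high share of ISRE matches can come from that choice alone. RefSeq starts (build GRCm38.p6) were at hand for 26 of the 36 members, each with 250 bases before and 50 bases after the start. They were searched on both strands for the core of the ISRE, GAAANNGAAA (TTTCNNTTTC on the other strand), and for the GAS element, TTCNNNGAA, which reads the same on both strands. Matches may overlap one another. The ISRE core was present for 13 of the 26 members, or 50.0%, and for 3.99% of the 27025 genes with a promoter in the same table. Among the members it was present for 11 of the 17 called and for 2 of the 8 above the filter and not called, Stat2 and Ifit3. GAS was present for 7 of the 26 members, or 26.9%, and for 9.55% of all genes in the table. A match describes the letters only and is no evidence of binding.

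The following 140 bases end at the last base before the start, 5′ to 3′ on the strand of the gene, with matches to the ISRE core in capitals. They show 6 called genes that each hold a match and differ in its number and place. Cmpk2, which was not called and lies 12752 bases from Rsad2, is shown as well. The choice leaves out the called members without the core in the searched bases: Irf7, Irf9, Oasl2, Trim25, Ifi35 and Lgals3bp. Ifit3, which was not called and held the core, is also not shown. Isg15 lies at chr4:156200819-156200958 (minus strand), Oas1a at chr5:120907526-120907665 (minus), Bst2 at chr8:71537473-71537612 (minus), Ifitm2 at chr7:140955962-140956101 (minus), Ifit1 at chr19:34640749-34640888 (plus), Rsad2 at chr12:26456453-26456592 (minus) and Cmpk2 at chr12:26469075-26469214 (plus).
Isg15: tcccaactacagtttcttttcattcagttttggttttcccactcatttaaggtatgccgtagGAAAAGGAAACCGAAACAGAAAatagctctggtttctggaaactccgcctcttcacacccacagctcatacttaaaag
Oas1a: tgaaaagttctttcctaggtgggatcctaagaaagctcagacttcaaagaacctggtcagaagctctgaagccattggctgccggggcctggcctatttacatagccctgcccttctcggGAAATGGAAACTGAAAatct
Bst2: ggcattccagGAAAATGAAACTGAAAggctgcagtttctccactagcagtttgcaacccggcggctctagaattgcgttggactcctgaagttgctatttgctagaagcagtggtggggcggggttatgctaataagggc
Ifitm2: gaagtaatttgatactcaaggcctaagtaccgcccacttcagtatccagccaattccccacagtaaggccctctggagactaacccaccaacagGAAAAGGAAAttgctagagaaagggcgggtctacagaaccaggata
Ifit1: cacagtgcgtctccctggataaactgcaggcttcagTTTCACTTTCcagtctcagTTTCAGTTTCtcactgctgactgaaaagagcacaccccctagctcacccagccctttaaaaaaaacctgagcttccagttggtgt
Rsad2: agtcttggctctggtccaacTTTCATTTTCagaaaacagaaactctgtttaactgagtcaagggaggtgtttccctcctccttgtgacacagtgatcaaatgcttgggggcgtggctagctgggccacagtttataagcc
Cmpk2: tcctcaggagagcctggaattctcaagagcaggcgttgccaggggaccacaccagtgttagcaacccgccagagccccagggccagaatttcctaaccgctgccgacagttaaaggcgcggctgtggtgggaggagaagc
Isg15 held 3 overlapping matches, between 78 and 57 bases before the start, and Oas1a and Bst2 each held 2 that overlap. The window of Cmpk2 does not hold the letters of the core.

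**Figure D3:**
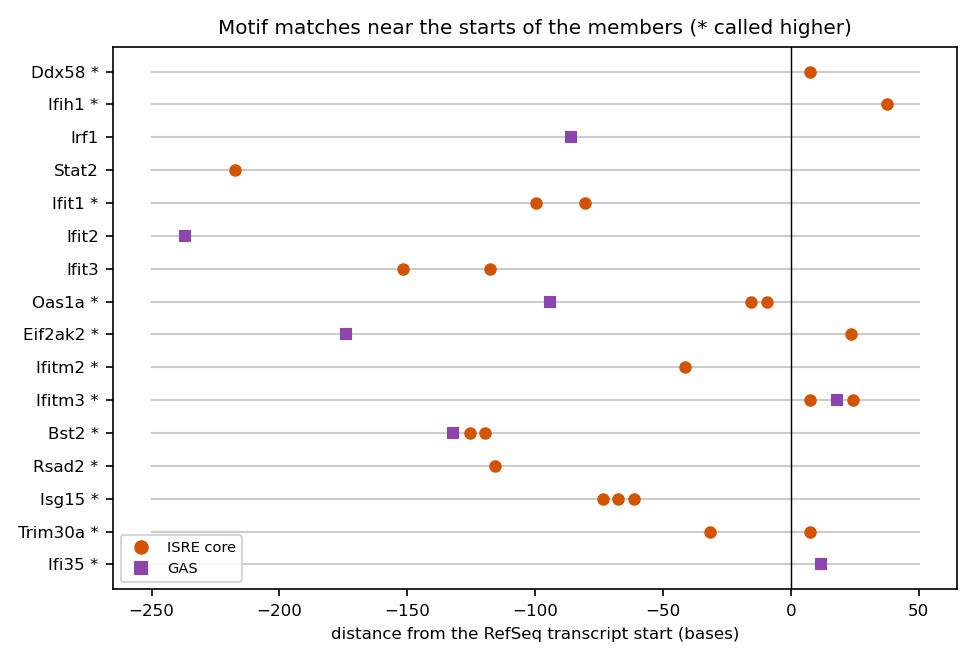
Centre of each match to the ISRE core (orange circles) and to GAS (purple squares), as the distance in bases from the RefSeq transcript start, for the 16 members with a match to either. An asterisk marks a member called higher in KO, and the 3 matches of Isg15 and the 2 of Ifit1 lie within 104 bases before the start.

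Among the sensors, 2 of the 3 members above the filter rose, where 9.77% of all tested genes were called higher. The counts of the role classes that follow are to be read beside that share. Ddx58 encodes RIG-I, which recognises short double-stranded RNA with a triphosphate end (chromosome 4, 40203773 to 40239828). It measured 0.914, 1.69, 1.28, 1.52 and 1.03 FPKM in WT1 to WT5 and 3.27, 2.62, 1.65, 3.16 and 3.57 FPKM in KO1 to KO5. The groups overlapped through the library labelled KO3, which lay just under WT2, and KO5 was the highest. The means were 1.29 ± 0.325 and 2.86 ± 0.757 FPKM (SD, n = 5 each; log2 fold change 0.74, SE 0.15, limma adjusted p = 0.0186). Ifih1 encodes MDA5, the sensor of long double-stranded RNA. It was 0.932, 0.983, 0.970, 1.14 and 1.02 FPKM in WT1 to WT5 and 2.06, 1.93, 1.11, 2.23 and 1.43 FPKM in KO1 to KO5. The WT values were close together, and KO5 and the library labelled KO3 were the low KO values, the latter inside the WT range (log2 fold change 0.44, SE 0.11, limma adjusted p = 0.0301). Dhx58 encodes LGP2, a relative of both that modulates them, and it did not pass. It was 0.270, 0.460, 0.364, 0.339 and 0.726 FPKM in WT1 to WT5 and 0.857, 0.715, 0.465, 1.11 and 0.722 FPKM in KO1 to KO5. WT5 was the high WT value and reached the KO range (log2 fold change 0.31, SE 0.11, limma adjusted p = 0.0875). Reads of Dhx58 cannot be told apart from those of its antisense gene Dhx58os, since no source says that strand was kept. Zbp1, a sensor of Z-form nucleic acids that can trigger cell death, was under the filter. It had 2, 13, 7, 6 and 0 fragments in WT1 to WT5 and 21, 22, 14, 22 and 6 in KO1 to KO5. For WT5 a count of 0 allows up to 3 fragments, or 0.0367 FPKM.

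Among the transcription factors, Irf7 and Irf9 rose, and Irf1 and Stat2 did not pass. Irf7, the factor that amplifies interferon production, lies on chromosome 7, 141262706 to 141266481. It measured 0.501, 1.69, 1.04, 2.16 and 0.619 FPKM in WT1 to WT5 and 4.95, 4.44, 1.95, 5.63 and 3.83 FPKM in KO1 to KO5. All KO libraries but the one labelled KO3 lay above WT4, the highest WT library. The WT mean of 1.20 ± 0.709 FPKM compared with 4.16 ± 1.40 FPKM for KO (SD, n = 5 each; log2 fold change 1.24, SE 0.24, limma adjusted p = 0.0186). Irf9, the DNA-binding part of ISGF3, was 1.83, 1.87, 1.52, 2.36 and 2.21 FPKM in WT1 to WT5 and 4.03, 3.85, 2.20, 4.23 and 3.54 FPKM in KO1 to KO5. Here too the library labelled KO3 alone lay in the WT range (log2 fold change 0.61, SE 0.13, limma adjusted p = 0.0196). Irf7 overlaps Phrf1 and Irf9 overlaps Rnf31 in the deposited coordinates, so reads in the shared bases are uncertain. Stat2, another subunit of ISGF3, was 5.26, 5.51, 5.73, 4.70 and 4.90 FPKM in WT1 to WT5 and 7.45, 6.71, 5.21, 6.67 and 5.87 FPKM in KO1 to KO5. Its KO libraries other than the one labelled KO3 lay above every WT library, by a small margin in KO5, and the log2 fold change was 0.24 (SE 0.08, limma adjusted p = 0.0735). Irf1, a factor induced most strongly by interferon gamma, was 0.677, 0.974, 0.903, 1.41 and 0.952 FPKM in WT1 to WT5 and 1.83, 1.81, 1.05, 1.75 and 1.43 FPKM in KO1 to KO5. WT4 nearly reached KO5, and the difference did not pass (log2 fold change 0.38, SE 0.12, limma adjusted p = 0.0510).

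Of the 6 effectors that bind RNA or stop translation 4 rose. Oasl2, a relative of the oligoadenylate synthetases (chromosome 5, 114896936 to 114912234), measured 0.683, 1.36, 1.05, 1.55 and 0.521 FPKM in WT1 to WT5 and 4.74, 4.65, 1.75, 5.86 and 4.45 FPKM in KO1 to KO5. The groups did not overlap, with the library labelled KO3 just above WT4. The ratio of means was 4.16 (log2 fold change 1.35, SE 0.22, limma adjusted p = 0.0180). Oas1a, which makes the second messenger that activates RNase L, was 0.192, 0.442, 0.209, 0.453 and 0.302 FPKM in WT1 to WT5 and 1.48, 1.33, 0.412, 1.24 and 1.34 FPKM in KO1 to KO5. The library labelled KO3 lay inside the WT range, far from the other KO libraries (log2 fold change 0.69, SE 0.15, limma adjusted p = 0.0194). Eif2ak2 encodes PKR, the kinase that halts translation on double-stranded RNA, and rose from 2.03 ± 0.359 to 3.68 ± 0.661 FPKM (SD, n = 5 each; log2 fold change 0.63, limma adjusted p = 0.0186) with no overlap.

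The Ifit genes encode proteins that bind foreign RNA, and 3 of them lie near each other on chromosome 19. Ifit1 (34640871 to 34650009) measured 0.572, 1.16, 0.677, 1.04 and 0.475 FPKM in WT1 to WT5 and 3.76, 2.64, 0.650, 3.45 and 2.13 FPKM in KO1 to KO5. It rose (log2 fold change 0.91, SE 0.24, limma adjusted p = 0.0346), with the library labelled KO3 in the middle of the WT range. Ifit3 was 1.68, 4.10, 3.19, 3.51 and 1.54 FPKM in WT1 to WT5 and 8.90, 7.20, 2.08, 10.2 and 7.11 FPKM in KO1 to KO5. WT1, WT5 and the library labelled KO3 were low, and the difference did not pass (ratio of means 2.53, against 3.22 for Ifit1; log2 fold change 1.02, SE 0.32, limma adjusted p = 0.0518). Ifit2 was 2.97, 3.67, 3.63, 3.21 and 2.86 FPKM in WT1 to WT5 and 5.36, 5.60, 3.15, 5.51 and 3.73 FPKM in KO1 to KO5. KO5 stood just above WT2, and Ifit2 did not pass (log2 fold change 0.39, SE 0.13, limma adjusted p = 0.0657). Ifit1 and Ifit3 have close copies in the mouse genome, and Oas1a belongs to a family of near copies, so the share of their reads is uncertain.

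The membrane and virus-restricting effectors held the largest log2 fold change of FPKM + 1, that of Bst2. They also held a gene with a difference near the median of all genes. By ratio of means Bst2, at 3.41, ranked below several members, Oasl2 at 4.16 among them. Bst2 encodes tetherin, which holds budding virus at the cell surface (chromosome 8, 71534264 to 71537437). It measured 3.08, 3.27, 4.25, 6.18 and 2.93 FPKM in WT1 to WT5 and 17.9, 13.9, 6.83, 16.8 and 11.8 FPKM in KO1 to KO5. The groups did not overlap, and WT4 and the library labelled KO3 came nearest to each other (log2 fold change 1.52, SE 0.23, limma adjusted p = 0.0180). Ifitm3 and Ifitm2, membrane proteins that block fusion of virus with the cell, lie 53625 bases apart on chromosome 7. Ifitm3 was 5.17, 6.40, 10.03, 9.21 and 6.30 FPKM in WT1 to WT5 and 20.3, 23.0, 10.3, 30.4 and 22.5 FPKM in KO1 to KO5. Its groups were separated by a small gap between WT3 and the library labelled KO3 (log2 fold change 1.37, SE 0.24, limma adjusted p = 0.0182). Ifitm2 was 5.30, 6.31, 8.05, 7.82 and 9.35 FPKM in WT1 to WT5 and 13.8, 14.5, 10.9, 15.5 and 15.6 FPKM in KO1 to KO5. Every KO library lay above WT5, the highest WT library (log2 fold change 0.86, SE 0.13, limma adjusted p = 0.0180). Ifitm2 and Ifitm3 are close paralogs, and how their shared reads were assigned is not given in the sources used here.

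Rsad2 and Cmpk2 stand 12752 bases apart on chromosome 12 and point away from each other. Rsad2 encodes viperin, an enzyme that makes a chain-terminating nucleotide, and Cmpk2 encodes a mitochondrial nucleotide kinase. Rsad2 rose from 0.300 ± 0.0650 to 1.01 ± 0.401 FPKM (SD, n = 5 each; log2 fold change 0.61, SE 0.13, limma adjusted p = 0.0196), and its groups did not overlap. Cmpk2 was 6.60, 7.46, 7.35, 8.24 and 6.02 FPKM in WT1 to WT5 and 8.71, 7.87, 8.55, 7.55 and 7.15 FPKM in KO1 to KO5. KO1 and the library labelled KO3 lay just above WT4, and the groups otherwise overlapped (log2 fold change 0.14, SE 0.08, limma adjusted p = 0.231), and the sign turned when olfactory bulb markers were a covariate (log2 fold change -0.01). Whether these neighbours differ in their response was not tested. Of the Mx genes, which encode dynamin-like GTPases that trap viral particles, Mx2 was above the filter and is listed as a polymorphic pseudogene in the deposited table. Mx2 was 0.292, 0.546, 0.478, 0.495 and 0.509 FPKM in WT1 to WT5 and 0.835, 0.651, 0.418, 0.847 and 0.650 FPKM in KO1 to KO5. The library labelled KO3 lay inside the WT range, and Mx2 did not pass (log2 fold change 0.19, SE 0.09, limma adjusted p = 0.173). Mx1 was under the filter, with 3, 16, 7, 6 and 2 fragments in WT1 to WT5 and 57, 57, 17, 43 and 24 in KO1 to KO5. C57BL/6 mice carry a deletion in Mx1 and make no working protein from it, so its RNA reports on induction only.

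ISG15 is a ubiquitin-like protein that is attached to other proteins by a chain of enzymes, and 4 of the 8 members among the ISG15, ubiquitin and ADP-ribose enzymes rose. Isg15 (chromosome 4, 156199424 to 156200818) measured 0.765, 1.79, 1.39, 3.19 and 1.29 FPKM in WT1 to WT5 and 7.77, 5.56, 2.40, 6.48 and 5.70 FPKM in KO1 to KO5. The library labelled KO3 lay below WT4 and the other KO libraries above it (log2 fold change 1.29, SE 0.26, limma adjusted p = 0.0186). Usp18, the protease that removes ISG15 and also damps the interferon receptor, was 0.408, 1.08, 0.644, 1.64 and 0.736 FPKM in WT1 to WT5 and 2.36, 2.10, 1.39, 3.14 and 2.09 FPKM in KO1 to KO5. It rose with the same order, the library labelled KO3 below WT4 (log2 fold change 0.77, SE 0.17, limma adjusted p = 0.0222). Herc6, the main ligase for ISG15 in the mouse, was 1.60, 1.81, 1.90, 2.13 and 1.66 FPKM in WT1 to WT5 and 2.19, 1.90, 1.40, 2.49 and 2.36 FPKM in KO1 to KO5. The groups overlapped, the library labelled KO3 was the lowest of all 10, and Herc6 did not pass (log2 fold change 0.11, SE 0.10, limma adjusted p = 0.473). The enzymes before it in the chain, which are not among the 36, both rose. Uba7, the activating enzyme, went from 0.361 ± 0.0995 to 0.916 ± 0.103 FPKM, and Ube2l6, the conjugating enzyme, from 1.30 ± 0.434 to 2.72 ± 0.620 FPKM (SD, n = 5 per group; limma adjusted p = 0.0180 and 0.0196). For Uba7 the library labelled KO3, at 0.870 FPKM, lay among the other KO libraries, which ran from 0.818 to 1.07 FPKM.

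**Figure D4:**
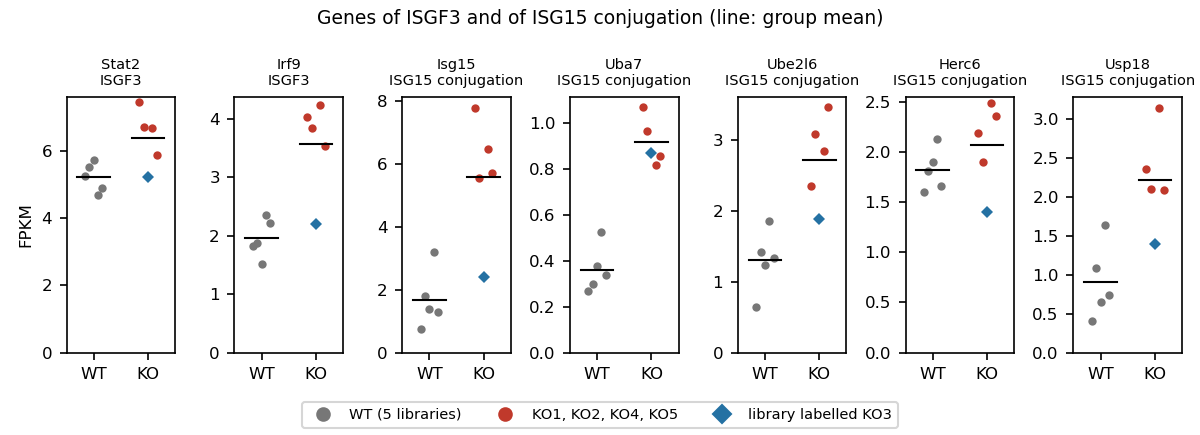
Level in FPKM of the ISGF3 genes Stat2 and Irf9 and of the ISG15 chain (Isg15, Uba7, Ube2l6, Herc6, Usp18), 1 point per library, with the group mean as a line and each vertical axis from 0. The library labelled KO3 (blue diamond) lies inside the WT range for Stat2, Irf9, Isg15 and Usp18, below it for Herc6 and among the KO libraries for Uba7.

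Trim25, the ubiquitin ligase that activates RIG-I, was 1.30, 1.67, 1.37, 1.65 and 1.17 FPKM in WT1 to WT5 and 2.88, 3.33, 1.91, 3.41 and 3.34 FPKM in KO1 to KO5. Its groups did not overlap (log2 fold change 0.70, SE 0.12, limma adjusted p = 0.0180). Trim30a, which restrains Toll-like receptor signalling, also rose without overlap, from 0.532 ± 0.139 to 1.21 ± 0.449 FPKM (SD, n = 5 each; log2 fold change 0.51, limma adjusted p = 0.0301). Parp9 and Dtx3l, an ADP-ribosyltransferase and a ubiquitin ligase that work as a pair, overlap on opposite strands of chromosome 16, with Parp14, another ADP-ribosyltransferase, 54967 bases from Dtx3l. Parp9 was 0.621, 1.13, 0.927, 1.11 and 0.723 FPKM in WT1 to WT5 and 1.66, 1.89, 0.778, 2.11 and 2.06 FPKM in KO1 to KO5. Parp14 was 0.780, 1.01, 0.651, 0.992 and 0.642 FPKM in WT1 to WT5 and 1.61, 1.47, 0.7097, 1.80 and 1.75 FPKM in KO1 to KO5. For both, the library labelled KO3 lay inside the WT range and the other KO libraries above it. Dtx3l was 1.07, 1.45, 0.835, 1.09 and 0.744 FPKM in WT1 to WT5 and 1.76, 1.92, 1.21, 2.02 and 1.26 FPKM in KO1 to KO5. KO5 and the library labelled KO3 lay below WT2. None of the 3 passed, with log2 fold changes of 0.48, 0.43 and 0.37 (SE 0.15, 0.13 and 0.12; limma adjusted p = 0.0505 for Parp9, 0.0517 for Parp14 and 0.0585 for Dtx3l).

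Of the 6 remaining effectors above the filter 5 rose. Lgals3bp, a secreted glycoprotein that binds galectins (chromosome 11, 118392751 to 118402092), measured 4.78, 6.89, 5.69, 10.2 and 4.96 FPKM in WT1 to WT5 and 17.5, 22.0, 8.80, 24.0 and 17.8 FPKM in KO1 to KO5. WT4 lay above the library labelled KO3, and the other KO libraries lay above WT4 (log2 fold change 1.32, SE 0.24, limma adjusted p = 0.0186). Ifi27 and Ifi27l2a, small membrane proteins of the same family, are 1928 bases apart on chromosome 12. Ifi27 had the highest level per length of the members, with 13.1, 14.2, 12.8, 19.3 and 13.2 FPKM in WT1 to WT5 and 30.9, 31.0, 18.2, 36.004 and 26.3 FPKM in KO1 to KO5. WT4 stood high and the library labelled KO3 low, below it (log2 fold change 0.90, SE 0.16, limma adjusted p = 0.0186). Ifi27l2a was 0.859, 1.42, 0.474, 1.44 and 0.264 FPKM in WT1 to WT5 and 5.33, 5.02, 1.03, 5.06 and 1.60 FPKM in KO1 to KO5. KO5 joined the library labelled KO3 at the low end, and the spread was wide (log2 fold change 1.18, SE 0.33, limma adjusted p = 0.0379). Rtp4, a chaperone of membrane receptors, rose from 0.948 ± 0.423 to 1.90 ± 0.297 FPKM, and Ifi35, a partner of the interferon-induced protein Nmi, from 0.610 ± 0.119 to 1.10 ± 0.245 FPKM (SD, n = 5 per group; limma adjusted p = 0.0255 and 0.0324), both without overlap. Xaf1, which antagonises an inhibitor of apoptosis, was 0.585, 0.655, 0.405, 1.43 and 0.643 FPKM in WT1 to WT5 and 1.56, 1.24, 0.947, 1.55 and 0.637 FPKM in KO1 to KO5. WT4 was high and KO5 low, so the groups crossed and Xaf1 did not pass (log2 fold change 0.33, SE 0.16, limma adjusted p = 0.166). Ifi44 was under the filter, with 7, 8, 17, 31 and 6 fragments in WT1 to WT5 and 75, 48, 31, 113 and 81 in KO1 to KO5.

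Upstream of the members, the interferon genes themselves gave almost no reads. Of 8 ligand genes, Ifnb1, Ifna1, Ifna2, Ifna4, Ifna5, Ifne and Ifng had 0 fragments in all 10 libraries. A count of 0 over the 5 libraries of a group allows up to 3 fragments, which is 0.0190 to 0.0429 FPKM for these 7 genes. Ifnk had 5 fragments in WT and 7 in KO. Of the 4 receptor genes none passed: Ifnar1 and Ifnar2, the receptor of type I interferon, had log2 fold changes of -0.01 and 0.18 (SE 0.07 and 0.11; limma adjusted p = 0.952 and 0.280). Over all tested genes 9.77% were called higher and 3.51% lower. Of 8 kinases and factors 2 rose and none fell. Stat3 rose from 8.12 ± 0.461 to 11.3 ± 1.64 FPKM and Irf8, a factor of microglia and other myeloid cells, from 1.98 ± 0.180 to 2.96 ± 0.647 FPKM (SD, n = 5 per group; limma adjusted p = 0.0196 and 0.0419). Among 8 measured adaptors, kinases and Toll-like receptors of nucleic acid sensing, Tmem173, which encodes STING, and Ticam1, the adaptor of Tlr3, rose by 0.26 and 0.27 on the log2 scale (limma adjusted p = 0.0482 and 0.0471) and none fell. None of 5 measured negative regulators, Socs1 and Socs3 among them, passed. Of 21 measured further interferon-stimulated genes 7 rose and none fell, with a median log2 fold change of 0.33. Without the library labelled KO3, 16 rose and 1, Znfx1, fell, where 19.6% of all tested genes were called higher. Among the 7 called in all libraries the 6 with the largest fold were Ube2l6, Lgals9, Rnf213, Trim30d, Uba7 and Tor3a, with log2 fold changes of 0.70, 0.62, 0.53, 0.52, 0.49 and 0.41.

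Markers of other cells and of another brain region were read in the same libraries. Over all tested genes 9.77% were called higher, and 19.6% without the library labelled KO3. The count of each list is to be read beside those shares. Of 10 markers of homeostatic microglia 2 rose, Sall1 and Aif1 (5 without the library labelled KO3), and their summed level was 117 to 139 FPKM in WT and 131 to 161 FPKM in KO, so the groups overlapped. Of 10 markers of infiltrating or border myeloid cells 6 were measured and 1 rose: Lyz2, the lysozyme of macrophages and activated microglia, from 1.27 ± 0.210 to 5.69 ± 2.28 FPKM (SD, n = 5 per group; limma adjusted p = 0.0180), with 1.94 FPKM in the library labelled KO3. Their summed level was 5.55 to 6.84 FPKM in WT and 7.13 FPKM in the library labelled KO3. Among the others of the KO group it was 11.9 to 13.9 FPKM, so it moved with the members, mainly through Lyz2. Lyz2 ran from 0.932 to 1.47 FPKM in WT, whereas KO1, KO2, KO4 and KO5 had levels of 5.33 to 7.83 FPKM. Mrc1, Lyve1, Cd163, F13a1 and Pf4, also measured, had log2 fold changes of 0.17, 0.08, 0.13, 0.12 and 0.09, and none was called. What part the sum had in the rise of the members was not tested. Ccr2 and Ly6c2, which define blood monocytes, averaged 0.0306 and 0.00608 FPKM in WT and 0.0782 and 0.0212 FPKM in KO. Ccr2 was higher in KO1, KO2, KO4 and KO5 than in any WT library, and inside the WT range in the library labelled KO3. Over all tested genes 17.8% were higher in those KO libraries than in any WT library. Of 10 markers of T, NK and B cells 1, Cd4, was measured, which microglia can also express, and Cd3e and Cd8a averaged 0.0101 and 0.00231 FPKM in WT and 0.0225 and 0.00796 FPKM in KO. Markers of plasmacytoid dendritic cells and neutrophils, of which 2 of 6 were measured and none rose or fell, summed to 4.21 to 7.40 FPKM in WT and 5.40 to 6.74 FPKM in KO. Most of that sum was Siglech, which is also among the microglia markers. Ccr9 and S100a9, both under the filter, were higher in KO1, KO2, KO4 and KO5 than in any WT library. The WT and KO means were 0.0449 and 0.118 FPKM for Ccr9 and 0.255 and 0.510 FPKM for S100a9. Ccr9 had 25 fragments in WT and 63 in KO, and S100a9 had 17 and 33. Ccr9 overlaps Slc6a20a, a meningeal fibroblast marker used below, and other genes in the deposited coordinates, so its reads are uncertain. Ly6g was at 0 in all libraries. Of 8 endothelial markers 1, Itm2a, rose, with summed levels of 90.1 to 106 FPKM in WT and 90.6 to 128 FPKM in KO.

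Markers of meningeal fibroblasts moved with the members. Of 8 such genes 3 rose, Lum, Ogn and Aldh1a2, against 9.77% of all tested genes. Without the library labelled KO3, 7 of them rose, against 19.6%. Their summed level was 24.6 to 36.3 FPKM in WT, 31.0 FPKM in the library labelled KO3 and 45.3 to 68.6 FPKM among the others of the KO group, so it parted the libraries in the same way as the members did. Their part in the rise of the members was not tested. Olfactory bulb markers, of which 4 of 9 rose, summed to 10.7 to 60.0 FPKM in WT and 38.9 to 111 FPKM in KO. Bulb markers summed to 81.6 FPKM in the library labelled KO3, which had 104.5 FPKM of the members. KO5 had 38.9 FPKM of bulb markers, below WT3 and WT4, and 172.2 FPKM of the members. The part of these markers in the rise of the members was not tested. With the bulb score as a covariate limma called 0 of the 33 members and 0 of all genes, 18 of the 33 and 2454 of all genes had an unadjusted p under 0.05, and the median log2 fold change was 0.58. With that covariate and without the library labelled KO3, 18 of the 33 were called higher, against 4.98% of all tested genes.

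**Figure D5:**
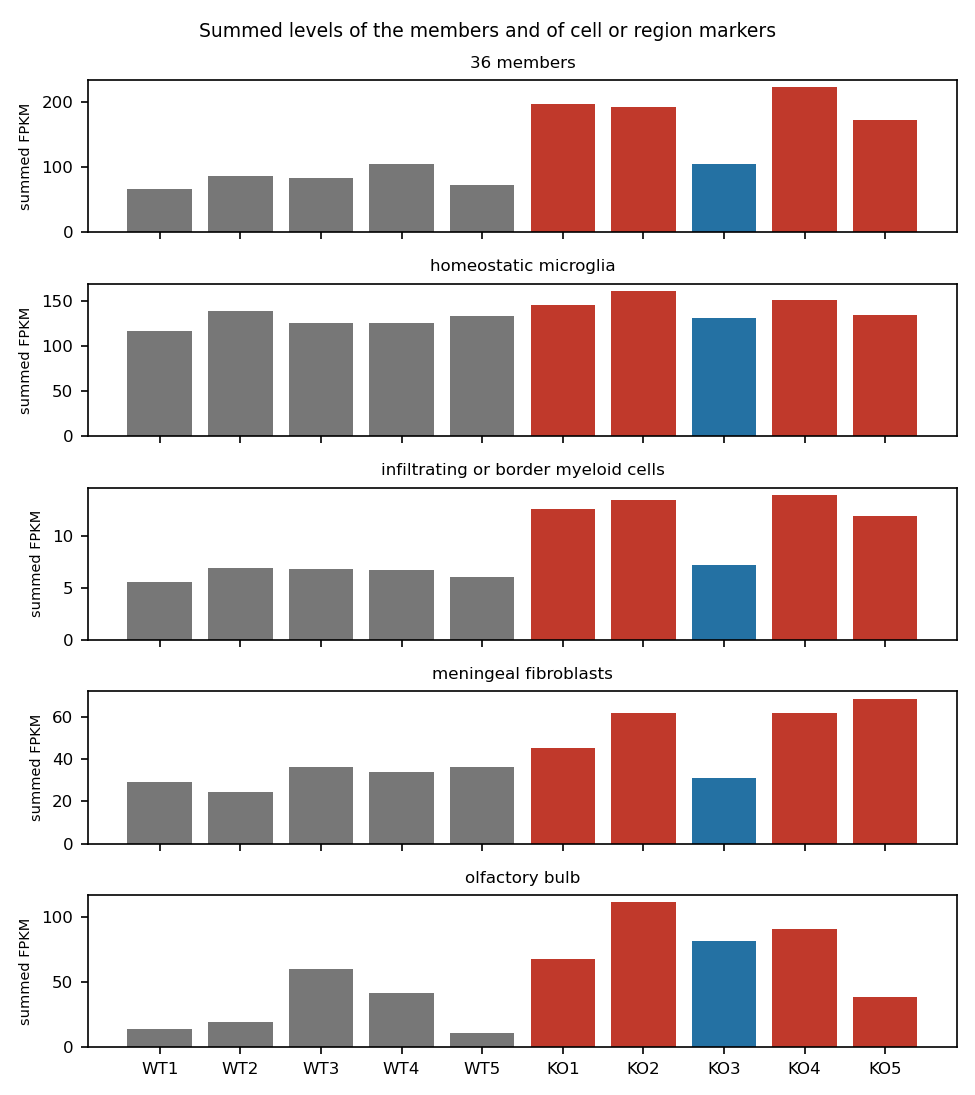
Summed FPKM by library of the 36 members and of 4 marker lists (bars from 0; grey WT, red KO, blue the library labelled KO3). For the members and the meningeal fibroblast markers, KO1, KO2, KO4 and KO5 stand above every WT library and the library labelled KO3 inside the WT range, for the members at its upper end (104.5 FPKM, with WT4 at 105.1 FPKM). The olfactory bulb markers sum to 81.6 FPKM in that library.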

How the data were processed

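Motor cortex RNA of 5 WT and 5 KO repeats was made into libraries with a NEBNext Ultra kit, per the labels' protocols. The authors deposited FPKM per gene and library, with gene lengths, per the file headers. Per the submitters' notes, mm10 and DESeq2 were involved, in what role is not said; the sources used here give no aligner, counter or annotation. FPKM times gene length gave whole fragments for 100% of values above 0, within 0.02, with 1 step per library. These fragments give the depth, 22793058 to 28827871 per library. Intervals and floors cover counting error only.

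Groups and replicate numbers came from the sample titles. The comparison used limma 3.58.1 in R 4.3.3 (lmFit, eBayes with a trend, two-sided, Benjamini-Hochberg) on log2(FPKM + 1) of 14497 genes averaging 0.5 FPKM or more, genotype alone in the model. Fold changes on this scale understate those of low genes. The members and lists were chosen with earlier results of these data known. Values in every library are given for Tmem259, for up to 3 called members per role with the largest fold and for each member above the filter not called. Alternatives covered pseudocount, filter, scaling, variance model, weights, replicate block, an olfactory bulb covariate, each library left out, and limma voom on the recovered fragments; leaving out KO3 with a further library was added after seeing the data. No 2 libraries were alike within counting noise (lowest chi-square per gene over 45 pairs, 7.22). The limma step was tested on simulated data. The result of 1 pathway gene is not reported here, and 35 of the 38 further interferon-stimulated genes listed were found in the table.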

Additional observations from a re-analysis of the deposited data

Results flagged for a closer look

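In groups of 5 libraries, a sample far from the other 4 was seen in 6 of 94 groups, over the 36 members, Tmem259 and 10 further named genes; chance gives about 1 in 20. The library labelled KO3 lay far below the other KO libraries for Oas1a (0.412 FPKM), Eif2ak2 (2.52 FPKM) and Stat3 (8.53 FPKM). WT4 lay far above the other WT libraries for Ifi27 (19.3 FPKM) and Xaf1 (1.43 FPKM). WT1 lay far below them for Mx2 (0.292 FPKM).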

How the results depend on the processing

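The number of members called higher was 21 of 33. It was 0 when the olfactory bulb score entered the model, and 0 to 30 over the fits that left out a library, alone or with KO3: 0 without WT1, KO2 or KO4, 14 to 21 without another single library other than KO3, 29 without KO3, and 27 to 30 without KO3 and a further library. Under the other alternatives it was between 15 and 29, and 0 members were called lower in any fit. Over all genes, 1926 were called. That count was 465 with no filter, 3557 with library weights, 1271 with the replicate block, 0 with the bulb score, 1117 with the bulb score and KO3 left out, and 2 to 3763 over the fits without a library. Cmpk2 alone among the members changed sign, to -0.01 with the bulb score and -0.02 with that score and KO3 left out. The causes were not tested. Whether replicate numbers pair mice is not said in the labels. Deviations of same-numbered libraries correlated between -0.0574 and 0.139. WT1 and WT4, but not the other WT libraries, correlated best with the KO library of their own number. These correlations cannot decide whether mice were paired, since the labels name no pairs to compare with. With the replicate block 22 members were called, 21 of them shared. Depth limits Zbp1, Mx1 and Ifi44, with 0 to 31 fragments in each WT library. Called members with counts in that range are limited by depth too. Ifi27l2a had 11, 19, 5, 18 and 3 fragments in WT1 to WT5, and Oas1a had 10, 24, 9, 23 and 14.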

Other observations

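The members also differed among the WT libraries. WT1 and WT5 were each the lowest WT library for 15 of the 36 members, and WT4 was the highest for 19 and WT2 for 11. Such ranks were not counted over all tested genes. The median difference from the WT mean of log2(FPKM + 1) was -0.14, 0.12, -0.04, 0.19 and -0.14 in WT1 to WT5 for the members above the filter. For all tested genes it was -0.01, 0.0, 0.02, 0.02 and -0.04. Summed over the members the level was 66.7 FPKM in WT1, 86.3 FPKM in WT2, 83.0 FPKM in WT3, 105.1 FPKM in WT4 and 71.9 FPKM in WT5. Among the KO libraries KO4 was the highest for 21 members and KO1 for 10. In KO1 to KO5 the same median difference was 0.68, 0.7, 0.19, 0.83 and 0.64 for the members above the filter. For all tested genes it was 0.1, 0.07, 0.02, 0.11 and 0.08, so KO4 was the highest and the library labelled KO3 the lowest there as well. KO4 had 222.3 FPKM in sum and KO5, the lowest after the library labelled KO3, 172.2 FPKM.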
